A study of Homo sapiens with 16 samples.

Results

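Cholesterol and fatty acid synthesis were followed in 36 genes of HMC3, a human microglial line that is an established cell line, after exposure to 17β-estradiol (E2), ketamine or a ketamine metabolite. The members were chosen by their gene symbols, and all 36 were among the 25370 genes of the deposited table of read counts. Of these, 35 were among the 16004 genes that passed a filter on low counts and were tested. The other member, ABCG1, an exporter of sterols, had 0 to 6 counts in each library and was not tested. By role, 7 members act in the mevalonate steps, 11 in the steps from farnesyl diphosphate to cholesterol, 6 in the control of sterol regulatory element binding proteins (SREBPs) and sterol transport, 5 are liver X receptors (LXRs) and their targets, and 7 make or modify fatty acids.

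There were 8 conditions with 2 RNA-seq libraries each, 16 in all: vehicle, E2 (0.1 nM), ketamine (400 nM), (2R,6R)-HNK (400 nM), (2S,6S)-HNK (400 nM), and E2 (0.1 nM) together with each of the 3 drugs at 400 nM. (2R,6R)-HNK and (2S,6S)-HNK are hydroxynorketamines, metabolites of ketamine, and are mirror images of each other. Every library, vehicle included, came from cells of the same line that were kept for 24 h with 5% charcoal-stripped serum and 24 h without serum before 24 h of exposure in medium free of serum and phenol red. The medium of all conditions thus held no serum during exposure. The sources used here do not say whether both libraries of a condition were made from different cultures, so p-values measure the spread between these libraries, which may be technical.

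Cells make cholesterol from acetyl-CoA through mevalonate, isoprenoid diphosphates and squalene. Sterol regulatory element binding protein 2, encoded by SREBF2, is held in the endoplasmic reticulum with SCAP by the INSIG proteins when sterols are plentiful, and otherwise moves to the Golgi, is cleaved and activates the genes of the pathway, INSIG1 among them. SREBF1 encodes the related factor that acts mainly on fatty acid genes. The LXRs, NR1H2 and NR1H3, respond to oxidised sterols and activate genes of sterol export such as ABCA1. In the brain cholesterol is made locally, and microglia handle large amounts of it when they take up myelin debris.

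The promoters of 6 members on which the results below turn are shown, with letters known from SREBP-controlled genes in capitals. Windows of 250 bases before the gene's start were taken from RefSeq (GRCh38.p14) for 31 of the 36 members and placed on GRCh37, whose sequence is that of hg19, by exact match. There was no window for ACAT2, FDFT1, SQLE, ABCG1 and FASN. Capitals mark, on both strands, TCACNCCAC (a sterol regulatory element, SRE), CCAAT (the core letters bound by NF-Y; ATTGG on the other strand) and CACGTG (an E-box), and no matches overlap in the stretches printed. Bases in exons of protein-coding genes were left out of the print, and with them some matches that the counts of windows below include. The whole windows held 2 CCAAT matches for HMGCS1, 1 for SC5D and 1 E-box for INSIG1, of which 1, 0 and 0 are printed. SREBF2 is shown because its window was the only member window with an exact SRE, HMGCS1, MSMO1, SC5D and INSIG1 because they were lower with (2R,6R)-HNK than with (2S,6S)-HNK, and ABCA1 because it was higher. The stretches are chr22:42228859-42229108 (plus strand) for SREBF2, chr5:43313615-43313764 (minus strand) for HMGCS1, chr4:166248571-166248818 (plus strand) for MSMO1, chr11:121163230-121163389 (plus strand) for SC5D, chr7:155089338-155089485 (plus strand) for INSIG1 and chr9:107690437-107690686 (minus strand) for ABCA1, each printed 5′ to 3′ on the gene's strand.
SREBF2: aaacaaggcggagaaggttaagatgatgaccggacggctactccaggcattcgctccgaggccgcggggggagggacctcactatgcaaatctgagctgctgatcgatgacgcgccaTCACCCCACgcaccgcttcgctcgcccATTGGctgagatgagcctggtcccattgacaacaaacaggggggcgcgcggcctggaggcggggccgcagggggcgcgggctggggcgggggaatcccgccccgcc
HMGCS1: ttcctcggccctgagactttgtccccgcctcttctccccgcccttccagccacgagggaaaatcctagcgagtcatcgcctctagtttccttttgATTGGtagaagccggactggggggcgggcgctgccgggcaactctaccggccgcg
MSMO1: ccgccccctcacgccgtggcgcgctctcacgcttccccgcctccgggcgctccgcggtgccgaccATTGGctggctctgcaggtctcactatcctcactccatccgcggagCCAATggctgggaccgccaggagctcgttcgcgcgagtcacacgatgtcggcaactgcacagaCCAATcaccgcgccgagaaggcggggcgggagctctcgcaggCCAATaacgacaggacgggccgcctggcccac
SC5D: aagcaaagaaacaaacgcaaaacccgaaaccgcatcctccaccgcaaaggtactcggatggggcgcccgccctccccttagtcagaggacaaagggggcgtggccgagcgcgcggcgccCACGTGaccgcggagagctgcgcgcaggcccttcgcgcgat
INSIG1: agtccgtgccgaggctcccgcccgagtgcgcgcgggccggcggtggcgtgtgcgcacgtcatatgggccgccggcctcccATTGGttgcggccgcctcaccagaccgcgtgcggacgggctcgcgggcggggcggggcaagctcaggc
ABCA1: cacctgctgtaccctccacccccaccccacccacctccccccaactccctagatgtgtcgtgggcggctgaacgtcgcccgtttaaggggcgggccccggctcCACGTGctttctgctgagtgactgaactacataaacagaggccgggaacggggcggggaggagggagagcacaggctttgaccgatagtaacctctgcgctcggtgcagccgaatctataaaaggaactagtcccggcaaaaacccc
The CCAAT letters were in 18 of the 31 member windows (58.1%), against 32.0% of 35116 RefSeq windows of the same length. They were most frequent in the sterol steps, in 8 of 9 windows, and were in 4 of 6 windows of the mevalonate steps, 3 of 6 of SREBP control, 2 of 6 of the fatty acid genes and 1 of 4 of the LXR group. The SRE letters were in 1 of 31 member windows against 0.883% of all windows, and the E-box in 4 of 31 (12.9%) against 6.34%. A match describes letters in the window and is not evidence of binding.

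The libraries held 55300614 to 81646165 counts in genes, and the members ranged from 182 counts for ELOVL6 in its lowest library to 224809 for FASN in its highest, among the 35 tested. Levels below are CPM, counts of a gene relative to the size of the library, with library sizes scaled by TMM. The median difference between the 2 libraries of a condition over the members was 0.016 to 0.064 on the log2 scale, and was widest for (2S,6S)-HNK. The labelled cell type was checked against markers of microglia and macrophages: AIF1, CX3CR1, P2RY12, TMEM119, ITGAM, PTPRC, SPI1 and TYROBP had at most 7 counts in any library, while CSF1R, CD68 and CD14 passed the low-count filter. The 6 fibroblast markers summed to 3959 to 5861 CPM, of which COL1A1 was 3589 to 5344, PDGFRB 196 to 293 and COL1A2 146 to 245, and COL3A1, DCN and LUM had at most 6, 12 and 4 counts. The 3 hepatocyte markers summed to at most 0.389 CPM. These sums varied between libraries, and their part in the results was not tested.

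Against vehicle, the question was which steps of lipid synthesis each exposure moved. INSIG1, the sterol-responsive retention protein of the SREBP pathway, was the member that rose most under (2S,6S)-HNK with E2, 1.10 on the log2 scale, with 0.96 under (2S,6S)-HNK alone and 0.999 under E2+(2R,6R)-HNK. ABCA1, the LXR-controlled exporter of cholesterol, fell under all 7 exposures, by 0.40 to 1.52. HMGCS1 and SC5D, at the entry and near the end of cholesterol synthesis, fell most under E2+ketamine, by 1.33 and 1.11 as counted. With the GC and length correction described below, these log2 fold changes were -0.70 and -0.33. The 7 comparisons share the 2 vehicle libraries.

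A member was called at an adjusted p below 0.05 (quasi-likelihood test in edgeR, Benjamini-Hochberg adjusted over all genes tested), and the counts over all members are set beside the percentage of all tested genes called in that direction. Under E2, 18 of 35 members rose (29.9% of all genes tested) and 13 fell (32.7%). Under ketamine, 18 of 35 members rose (26.8% of all genes tested) and 14 fell (32.5%). Under (2R,6R)-HNK, 18 of 35 members rose (31.7% of all genes tested) and 12 fell (34.9%). The shares of members called were above the background for higher calls and near or above it for lower calls in these exposures. Under (2S,6S)-HNK, 20 of 35 members rose (32.1% of all genes tested) and 11 fell (35.8%). Under E2+ketamine, 18 of 35 members rose (34.3% of all genes tested) and 15 fell (37.4%). Under E2+(2R,6R)-HNK, 22 of 35 members rose (33.4% of all genes tested) and 11 fell (36.3%). In the E2+(2S,6S)-HNK libraries, 20 of 35 members rose (24% of all genes tested) and 6 fell (35.7%). The median log2 fold change of the members was 0.11, 0.07, 0.20, 0.24, 0.09, 0.27 and 0.14 in the same order. That over all genes tested was no further from 0 than -0.06 in any of them. With the GC and length correction described below, the members' medians were 0.04, -0.06, 0.04, 0.23, 0.02, 0.26 and 0.19, so that under ketamine turned sign. The smallest difference called among the members was that of FDFT1 under ketamine, 0.06 on the log2 scale.

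With the study's criteria, which add a log2 fold change of at least 1, few members passed. No member passed under E2, ketamine or (2R,6R)-HNK, where 1.81%, 3.56% and 3.75% of all genes passed, although 31, 32 and 30 of the 35 members passed the adjusted p alone. Under (2S,6S)-HNK, 2 of 35 members passed (ABCA1 and ELOVL6, both lower; 9.08% of all genes). Under E2+ketamine, 5 passed (11%), with NR1H2 higher and HMGCS1, SC5D, ABCA1 and ELOVL6 lower. Under E2+(2R,6R)-HNK, ABCA1 passed, lower (11.5%), and under E2+(2S,6S)-HNK, INSIG1 passed as higher and ABCA1 as lower (5.85%). As counted, no more than 5 of 35 members passed in any comparison, too few to read their share as different from that of all genes. After the GC and length correction described next, no member passed under E2+ketamine (402 of 16004 genes), so all 5 of its members were lost. INSIG1 (higher) and ABCA1 (lower) then passed under (2S,6S)-HNK, E2+(2S,6S)-HNK and E2+(2R,6R)-HNK, where 752, 799 and 922 of the 16004 genes passed, and no member passed under E2, ketamine or (2R,6R)-HNK.

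The direction of many members followed the base composition of their exons. Members with GC-rich exons, such as FASN (65.2% GC), SREBF1 (61.5%) and NR1H2 (59.6%), tended to be higher than in vehicle, and members with AT-rich exons, such as SC5D (37.3%), MSMO1 (38.8%) and HMGCS1 (40.3%), tended to be lower. Across the 35 members, Spearman's rho between exon GC content and log2 fold change was, in the same order of exposures, 0.91, 0.71, 0.90, 0.73, 0.87, 0.70 and 0.30. Over 15363 genes with a known GC content it was 0.75, 0.64, 0.75, 0.65, 0.77, 0.66 and 0.44. These are correlations across genes that share libraries, given as a description. Whether the trend arose in the cells or in library preparation was not tested, so results against vehicle are given as counted and after a correction that removes the trend with GC content and exon length from each library, along with any change in the cells that follows it.

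**Figure D1:**
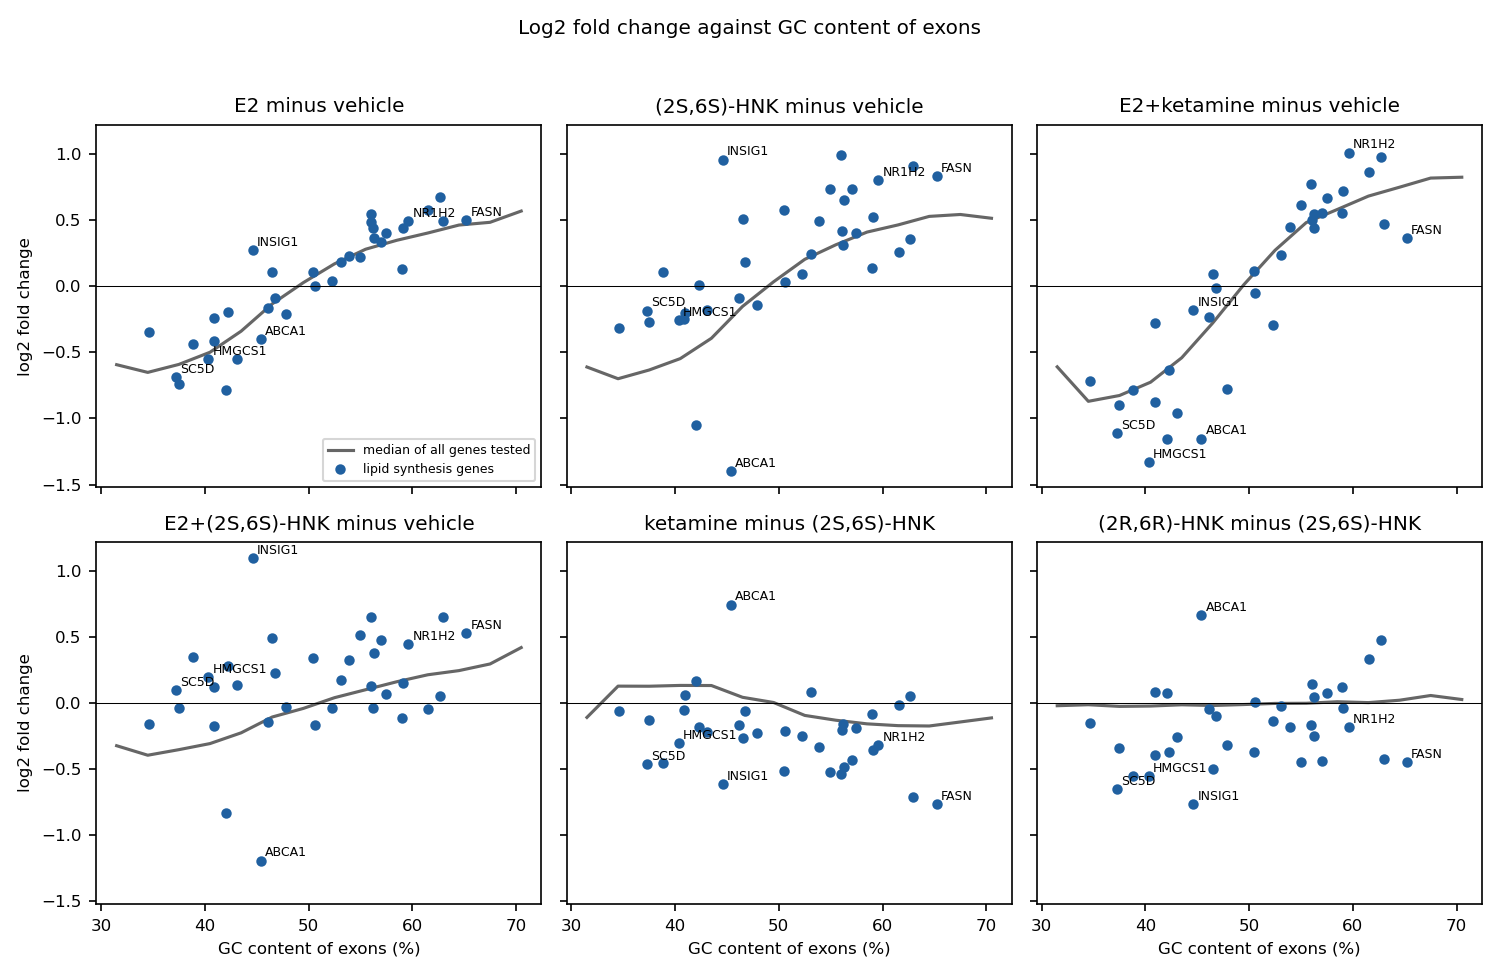
Each panel plots the log2 fold change of the 35 members (dots) against the GC content of their exons in percent, with the median of all genes tested in bins of GC content (line). The members lie along a rising line for E2 and E2+ketamine against vehicle, and the line is nearly flat for (2R,6R)-HNK against (2S,6S)-HNK, where INSIG1, SC5D and HMGCS1 lie below it and ABCA1 above it.

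After the correction, members were called 13 higher and 9 lower under E2 (all genes, 15.6% and 22.4%), 8 higher and 17 lower under ketamine (17.7% and 30.8%) and 13 higher and 10 lower under (2R,6R)-HNK (20.5% and 25.2%). The numbers were 22 higher and 8 lower under (2S,6S)-HNK (25.4% and 31.5%), 15 higher and 13 lower under E2+ketamine (24.3% and 28.3%), 20 higher and 8 lower under E2+(2R,6R)-HNK (25.9% and 33.6%) and 21 higher and 10 lower under E2+(2S,6S)-HNK (22.4% and 34%). For ketamine the balance of the members turned from 18 higher and 14 lower to 8 higher and 17 lower. In each of the 7 the share of members called higher was above that of all genes, and the share called lower was above it for E2, ketamine, (2R,6R)-HNK and E2+ketamine and below it for the other 3. Of the members called as counted, the correction kept the call and direction of 17 of 31 under E2, 13 of 32 under ketamine, 15 of 30 under (2R,6R)-HNK, 15 of 31 under (2S,6S)-HNK, 22 of 33 under E2+ketamine, 18 of 33 with E2 and (2R,6R)-HNK and 20 of 26 with E2 and (2S,6S)-HNK. The sign changed in 8, 16, 9, 12, 7, 13 and 5 of them, in the same order, of which 3, 10, 5, 12, 5, 9 and 3 were called in the opposite direction. As counted, 13 of 35 members were called higher in all 7 comparisons (13.4% of all genes tested) and 4 lower in all 7 (21.4%), namely ACAT2, STARD4, ABCA1 and ELOVL6. With the correction, INSIG1, STARD4, NR1H2 and SCD were higher in all 7 (4.86% of all genes), and ABCA1, ELOVL6 and ACLY were lower in all 7 (11.7%). STARD4, a carrier of cholesterol between membranes, was thus lower in all 7 comparisons as counted and higher in all 7 after correction, and its exons are 34.6% GC.

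**Figure D2:**
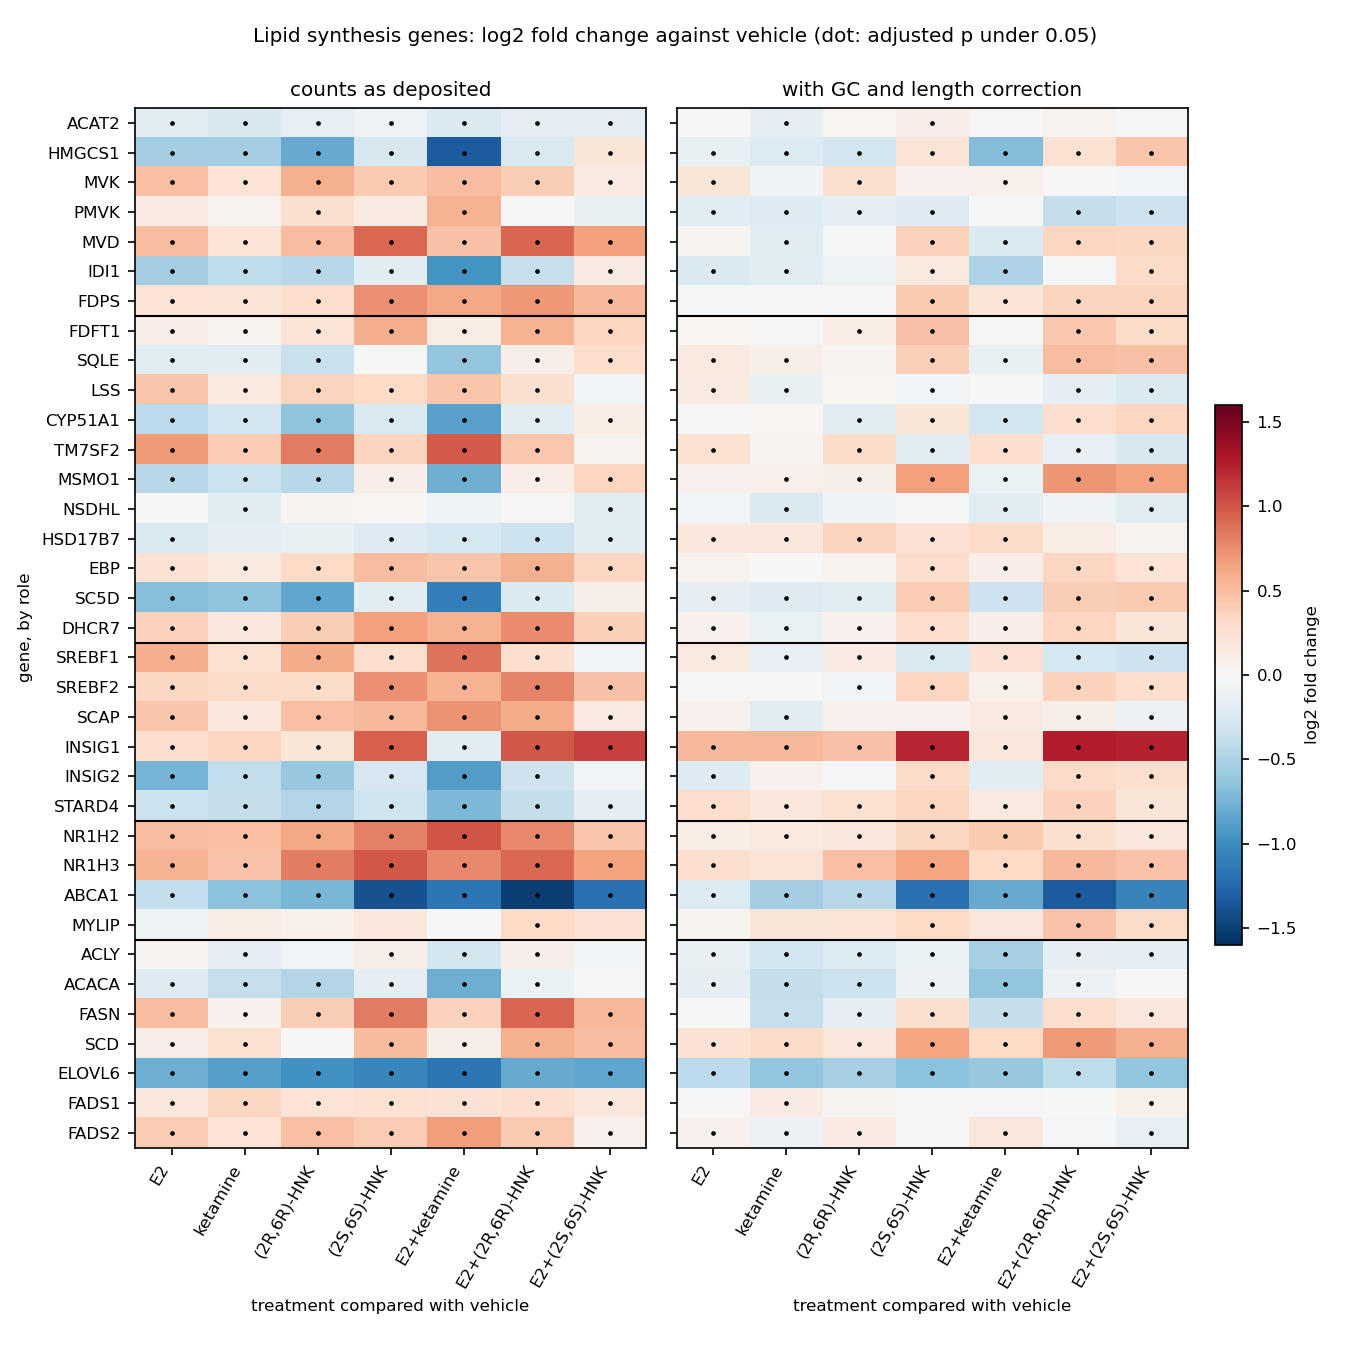
Colours give the log2 fold change against vehicle of the 35 members (rows, by role, separated by lines) under 7 exposures (columns), as counted on the left and after GC and length correction on the right, and dots mark an adjusted p below 0.05. ABCA1 and ELOVL6 are lower in every column on both sides, and INSIG1 is higher in every column on the right.

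In the mevalonate steps, 3 or 4 of 7 members rose and 3 fell in each comparison with vehicle except E2+(2S,6S)-HNK, where 5 rose and 1 fell. Over the 7 comparisons, 24% to 34.3% of all genes rose and 32.5% to 37.4% fell. As counted, the falls in this group thus lay near that share in 6 of them. With the correction, 1, 0, 1, 5, 2, 3 and 4 members rose and 3, 5, 2, 1, 3, 1 and 1 fell, in the order used above. The corrected shares of all genes are those given above for each exposure. HMGCS1 (ENSG00000112972; chr5:43287572-43313614, minus strand, GRCh37) makes HMG-CoA, the substrate of the mevalonate pathway. HMGCS1 was at 195 and 195 CPM in the vehicle libraries, 132 and 134 with E2, 131 and 135 with ketamine, 112 and 111 with (2R,6R)-HNK and 166 and 162 with (2S,6S)-HNK. With E2 added, it was at 77.4 and 77.8 CPM for ketamine, 163 and 166 for (2R,6R)-HNK and 217 and 230.0 for (2S,6S)-HNK. Against vehicle, both libraries were lower under every exposure except E2+(2S,6S)-HNK, where both were higher, and the E2+ketamine libraries were below all others. The log2 fold changes were -0.55, -0.56, -0.81, -0.25, -1.33, -0.24 and 0.19 in the order used above, and -0.12, -0.22, -0.30, 0.21, -0.70, 0.24 and 0.44 after correction. The change under E2+ketamine (standard error 0.032; Benjamini-Hochberg adjusted p by edgeR's quasi-likelihood test, 1.25e-36) kept its direction after correction, while those under (2S,6S)-HNK and E2+(2R,6R)-HNK turned from lower to higher. IDI1, which isomerises isopentenyl diphosphate, had log2 fold changes of -0.55, -0.41, -0.44, -0.18, -0.96, -0.37 and 0.14, and -0.24, -0.17, -0.08, 0.15, -0.49, -0.03 and 0.31 after correction. MVD and FDPS, which make isopentenyl and farnesyl diphosphate, were called higher in all 7 comparisons, by up to 0.93 for MVD and 0.73 for FDPS. After correction, FDPS remained higher in 4 of 7, namely under (2S,6S)-HNK and the exposures with E2 and a drug, by 0.21 to 0.42, and MVD was called higher in 3 and lower in 2, with values of -0.24 to 0.37. MVK, which phosphorylates mevalonate, and PMVK, which adds the next phosphate, had log2 fold changes of 0.48, 0.22, 0.57, 0.42, 0.50, 0.40 and 0.13 and of 0.13, 0.05, 0.26, 0.14, 0.55, -0.01 and -0.12, and PMVK was called in 2 of 7 comparisons, (2R,6R)-HNK and E2+ketamine, higher in both. After correction PMVK was called lower in 6 of 7 and higher in none (-0.38 to 0.01), and MVK was called higher in 3 and lower in none (-0.06 to 0.26). ACAT2, the thiolase that joins acetyl-CoA units, varied least of the 7 genes, with log2 fold changes of -0.26 to -0.09, or -0.14 to 0.11 after correction, and 454 bp of its exons overlap TCP1. Exons of FDPS, IDI1 and MVK overlap those of RUSC1-AS1, IDI2-AS1 and MMAB on the other strand by 693, 643 and 225 bp.

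In the sterol steps, 5 to 7 of 11 members rose and 2 to 5 fell as counted, against the same shares of all genes, around which the falls lay. With the correction, 5, 3, 5, 8, 4, 7 and 7 rose and 1, 4, 2, 2, 5, 2 and 3 fell, in the same order of exposures. SC5D (ENSG00000109929; chr11:121163390-121184119, plus strand) is the sterol C5-desaturase, which acts late in the pathway. SC5D was at 36.9 and 37.1 CPM in the vehicle libraries, 23.4 and 22.6 with E2, 24.1 and 23.1 with ketamine, 20.7 and 20.8 with (2R,6R)-HNK and 33.5 and 31.7 with (2S,6S)-HNK. Combined with E2, it was at 17.0 and 17.3 CPM for ketamine, 32.5 and 30.3 for (2R,6R)-HNK and 38.8 and 40.4 for (2S,6S)-HNK. The vehicle and E2+(2S,6S)-HNK libraries were the highest, and the E2+ketamine libraries were the lowest and overlapped no other condition. Log2 fold changes were -0.69, -0.65, -0.83, -0.18, -1.11, -0.24 and 0.10, and -0.15, -0.20, -0.18, 0.40, -0.33, 0.40 and 0.42 after correction, so that the falls under (2S,6S)-HNK and E2+(2R,6R)-HNK turned into rises. Under E2+ketamine the standard error was 0.057 (Benjamini-Hochberg adjusted p by edgeR's quasi-likelihood test, 2.4e-23).

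SQLE, squalene epoxidase, is a rate-controlling enzyme of the later pathway. SQLE was at 166 and 168 CPM in the vehicle libraries, 145 and 146 with E2, 148 and 148 with ketamine, 129 and 131 with (2R,6R)-HNK and 170.4 and 166 with (2S,6S)-HNK. Where E2 was given as well, it was at 106 and 108 CPM for ketamine, 182 and 175 for (2R,6R)-HNK and 201 and 204 for (2S,6S)-HNK. The E2+(2S,6S)-HNK libraries were the highest and the E2+ketamine libraries the lowest, and the (2S,6S)-HNK libraries overlapped vehicle. Its log2 fold changes were -0.20, -0.17, -0.36, 0.01, -0.63, 0.10 and 0.28, and 0.16, 0.10, 0.04, 0.39, -0.12, 0.49 and 0.47 after correction. Under E2 and ketamine the direction turned from lower to higher with the correction, and under (2R,6R)-HNK the corrected value was not called. MSMO1 and CYP51A1, which remove methyl groups from lanosterol, had log2 fold changes of -0.44, -0.34, -0.44, 0.11, -0.78, 0.10 and 0.35 and of -0.42, -0.30, -0.64, -0.25, -0.87, -0.19 and 0.12. After correction CYP51A1 was called higher in 3 and lower in 2 (-0.29 to 0.35). MSMO1 was then called higher in 5 and lower in 1 (-0.11 to 0.71). Under ketamine it turned from lower to higher, at 0.08, and under E2 it lost its call, at 0.06. It rose under (2S,6S)-HNK and under E2 with (2R,6R)-HNK or (2S,6S)-HNK by 0.66, 0.71 and 0.64. FDFT1, squalene synthase, rose in all 7 comparisons, and its rises under the same 3 exposures, 0.58, 0.56 and 0.34, were 0.47, 0.43 and 0.29 after correction. FDFT1 was then called higher in 4 and lower in none (-0.03 to 0.47), and its calls under E2 (0.03) and ketamine (-0.03) were among those lost. TM7SF2, a sterol reductase with GC-rich exons (62.7%), rose by 0.36 to 0.98 in 6 comparisons and had a log2 fold change of 0.05 under E2+(2S,6S)-HNK. After correction it was called higher in 3 and lower in 3 (-0.25 to 0.31). DHCR7, which makes cholesterol from its last precursor, rose by 0.16 to 0.75 in all 7, and by 0.07 to 0.34 in 6 of 7 after correction, the exception being ketamine at -0.11. LSS, which closes the sterol rings, and EBP, a sterol isomerase, rose in 6 and 7 comparisons as counted, by up to 0.44 and 0.57. After correction LSS was called higher in 1 and lower in 4 (-0.23 to 0.14), while EBP was called higher in 4 and lower in none (-0.00 to 0.34). NSDHL and HSD17B7, which act in removing the methyl groups, had log2 fold changes of -0.18 to 0.04 and of -0.34 to -0.12, and were called lower in 2 and 5 comparisons. After correction NSDHL was called lower in 3 (-0.24 to -0.02), and HSD17B7 was above 0 in all 7 and called higher in 5 (0.05 to 0.35).

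Among the genes of SREBP control, INSIG1 (ENSG00000186480; chr7:155089486-155101945, plus strand) had the largest single rise as counted, 1.10 under E2+(2S,6S)-HNK. Under E2, (2R,6R)-HNK and E2+ketamine, SREBF1 and SREBF2 rose more than INSIG1 did. INSIG1 was at 257 and 257 CPM in the vehicle libraries, 312 and 311 with E2, 329 and 324 with ketamine, 296 and 293 with (2R,6R)-HNK and 504 and 495 with (2S,6S)-HNK. In the E2 combinations, it was at 225 and 229 CPM for ketamine, 519.6 and 508 for (2R,6R)-HNK and 543 and 555 for (2S,6S)-HNK. The libraries fell into a high range of 495 to 555 CPM, which held (2S,6S)-HNK and both HNKs with E2, and a range of 225 to 329 CPM, which held all others. The E2+ketamine libraries were below vehicle and the remaining exposures above it, with no overlap with vehicle. The log2 fold changes were 0.28, 0.35, 0.20, 0.96, -0.18, 0.999 and 1.10, and 0.51, 0.52, 0.46, 1.21, 0.18, 1.26 and 1.23 after correction, so that the fall under E2+ketamine turned into a rise. The standard error was 0.024 in each, and the adjusted p under E2+(2S,6S)-HNK was 1.81e-37 (quasi-likelihood test in edgeR, Benjamini-Hochberg). Under E2+(2R,6R)-HNK the unrounded value, 0.9993, lay just outside the study's criteria. In these bulk libraries, a change in the level per cell and a change in the share of cells that express a gene cannot be told apart.

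SREBF2, which encodes the SREBP of cholesterol genes, rose in all 7 comparisons as counted. SREBF2 was at 294 and 298 CPM in the vehicle libraries, 374 and 373 with E2, 364 and 368 with ketamine, 359.9 and 368 with (2R,6R)-HNK and 482 and 505 with (2S,6S)-HNK. When E2 was present, it was at 430.5 and 441 CPM for ketamine, 514 and 517 for (2R,6R)-HNK and 411 and 412 for (2S,6S)-HNK. All libraries of the 7 exposures were above both vehicle libraries, and (2S,6S)-HNK and E2+(2R,6R)-HNK were the highest. The log2 fold changes were 0.33, 0.31, 0.30, 0.74, 0.56, 0.80 and 0.47, and 0.02, 0.01, -0.05, 0.35, 0.08, 0.36 and 0.27 after correction, which turned the direction under (2R,6R)-HNK and ended the calls under E2 and ketamine. Its promoter window, printed above, is the only one with the SRE letters among the 31 member windows available. SREBF1 differed from SREBF2 in which exposures were highest. SREBF1 was at 141 and 135 CPM in the vehicle libraries, 204 and 208 with E2, 163 and 165 with ketamine, 209.6 and 208 with (2R,6R)-HNK and 162 and 169 with (2S,6S)-HNK. With E2 added, it was at 244 and 259.5 CPM for ketamine, 163 and 170.0 for (2R,6R)-HNK and 138 and 129 for (2S,6S)-HNK. Its levels were highest with E2+ketamine, and the E2+(2S,6S)-HNK libraries overlapped vehicle. Log2 fold changes were 0.58, 0.25, 0.60, 0.26, 0.87, 0.27 and -0.04, and 0.15, -0.13, 0.14, -0.24, 0.23, -0.29 and -0.33 after correction, which turned the direction under ketamine, (2S,6S)-HNK and E2+(2R,6R)-HNK. Exons of SREBF1 overlap 556 bp of RAI1 on the other strand, and whether the counting used strand is not given in the sources used here. SCAP, the escort of SREBPs, rose in all 7 comparisons by 0.15 to 0.72, and after correction by 0.09 and 0.15 in the 2 comparisons in which it was still called higher, E2+(2R,6R)-HNK and E2+ketamine. It was then called lower under ketamine (-0.17) and E2+(2S,6S)-HNK (-0.10). INSIG2, the second retention protein, had log2 fold changes of -0.74, -0.39, -0.61, -0.27, -0.90, -0.33 and -0.04, and -0.20, 0.07, -0.01, 0.30, -0.17, 0.31 and 0.26 after correction.

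**Figure D3:**
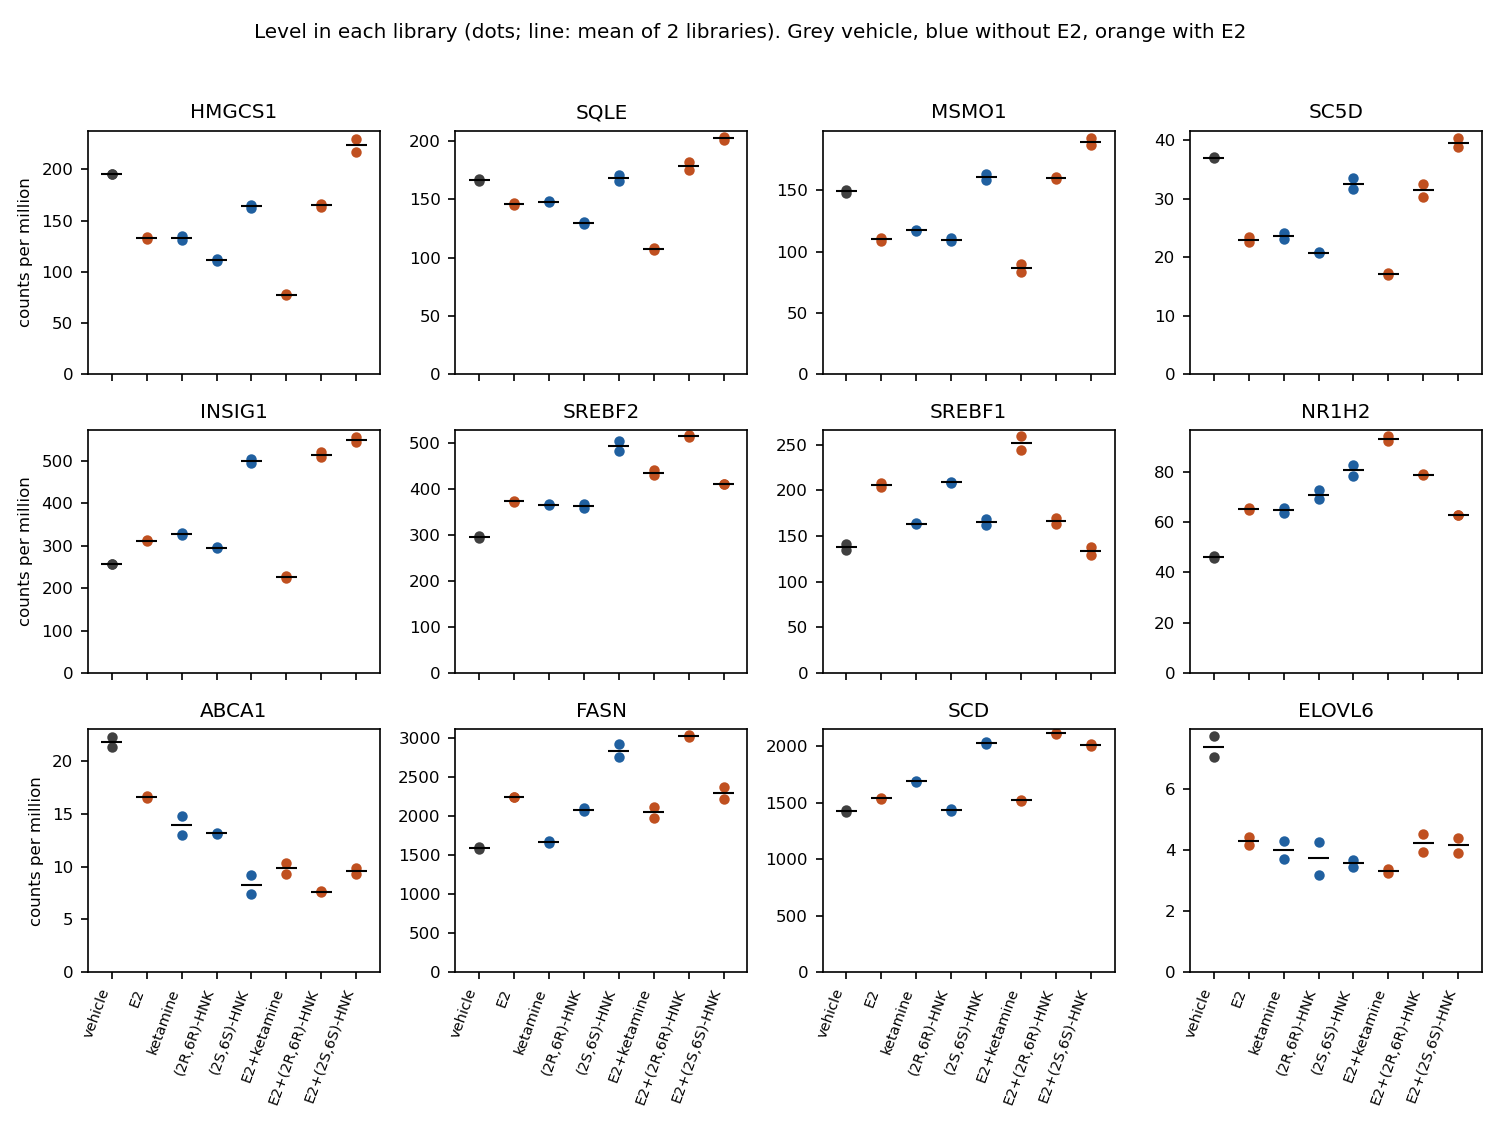
Dots give the level in CPM (axis from 0) in each of the 16 libraries for 12 members, and lines the mean of the 2 libraries of a condition (grey for vehicle, blue without E2, orange with E2). INSIG1 is at 495 to 555 CPM in 6 libraries and at 225 to 329 CPM in the other 10, and ABCA1 is highest in the vehicle libraries.

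In the LXR group, both receptors rose and ABCA1 fell in all 7 comparisons as counted. ABCA1 (ENSG00000165029; chr9:107543287-107690436, minus strand) was lower under every exposure. ABCA1 was at 21.4 and 22.2 CPM in the vehicle libraries, 16.7 and 16.4 with E2, 13.0 and 14.8 with ketamine, 13.1 and 13.2 with (2R,6R)-HNK and 9.18 and 7.41 with (2S,6S)-HNK. Combined with E2, it was at 9.29 and 10.3 CPM for ketamine, 7.58 and 7.64 for (2R,6R)-HNK and 9.25 and 9.86 for (2S,6S)-HNK. All treated libraries were below both vehicle libraries. The log2 fold changes were -0.40, -0.65, -0.73, -1.40, -1.15, -1.52 and -1.19, with standard errors of 0.077 to 0.085, and -0.22, -0.55, -0.46, -1.19, -0.80, -1.34 and -1.07 after correction. Under E2+(2R,6R)-HNK the adjusted p was 4.21e-22 (quasi-likelihood test in edgeR, Benjamini-Hochberg), and ABCA1 met the study's criteria there and under (2S,6S)-HNK, E2+ketamine and E2+(2S,6S)-HNK. NR1H2, LXR-beta (ENSG00000131408; chr19:50832910-50886645, plus strand), rose. NR1H2 was at 45.6 and 46.6 CPM in the vehicle libraries, 65.5 and 64.6 with E2, 65.6 and 63.6 with ketamine, 72.6 and 69.0 with (2R,6R)-HNK and 78.4 and 82.7 with (2S,6S)-HNK. Where E2 was given as well, it was at 92.0 and 94.0 CPM for ketamine, 78.9 and 78.6 for (2R,6R)-HNK and 62.8 and 62.9 for (2S,6S)-HNK. The highest libraries were those of E2+ketamine, and no treated library overlapped vehicle. Log2 fold changes were 0.50, 0.49, 0.62, 0.80, 1.01, 0.77 and 0.45, and 0.12, 0.15, 0.18, 0.34, 0.41, 0.26 and 0.18 after correction, the rise under E2+ketamine thus moving from 1.01 to 0.41. Its exons overlap 1182 bp of NAPSA on the other strand. NR1H3, LXR-alpha, was at 6.01 and 6.19 CPM in vehicle and rose by 0.46 to 0.99 on the log2 scale, and by 0.27 to 0.63 after correction in the 6 comparisons still called. MYLIP, an LXR target that degrades lipoprotein receptors, was called in 1 comparison as counted, E2+(2R,6R)-HNK, at 0.32, and higher in 3 after correction (0.04 to 0.46). ABCG1, at 0 to 6 counts, gave no level to compare.

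In fatty acid synthesis, 3 to 5 of 7 members rose and 1 to 3 fell as counted, and the falls were again near or below the share of all genes. With the correction, 2, 2, 2, 2, 2, 2 and 3 rose and 3, 5, 4, 3, 4, 3 and 3 fell, in the same order of exposures. The corrected falls were more frequent than among all genes under ketamine (30.8% of all genes), (2R,6R)-HNK (25.2%) and E2+ketamine (28.3%). The 3 falls under each other exposure, in a group of 7, are not read as a difference from all genes. ELOVL6 (ENSG00000170522; chr4:110967002-111120355, minus strand), which extends palmitate to stearate, was at a low level. ELOVL6 was at 7.03 and 7.72 CPM in the vehicle libraries, 4.41 and 4.16 with E2, 3.71 and 4.28 with ketamine, 4.26 and 3.18 with (2R,6R)-HNK and 3.45 and 3.68 with (2S,6S)-HNK. In the E2 combinations, it was at 3.36 and 3.26 CPM for ketamine, 4.52 and 3.92 for (2R,6R)-HNK and 3.91 and 4.40 for (2S,6S)-HNK. All treated libraries were below both vehicle libraries. The log2 fold changes were -0.78, -0.88, -0.97, -1.05, -1.16, -0.80 and -0.83, with standard errors of 0.12 to 0.13, and -0.42, -0.62, -0.53, -0.65, -0.60, -0.41 and -0.62 after correction. The falls under (2S,6S)-HNK and E2+ketamine met the study's criteria (Benjamini-Hochberg adjusted p by edgeR's quasi-likelihood test, 7.79e-10 and 4.5e-11).

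FASN, fatty acid synthase, was among the most abundant members. FASN was at 1607 and 1581 CPM in the vehicle libraries, 2252 and 2254 with E2, 1663 and 1684 with ketamine, 2107 and 2065 with (2R,6R)-HNK and 2757 and 2922 with (2S,6S)-HNK. When E2 was present, it was at 1977 and 2122 CPM for ketamine, 3016 and 3045 for (2R,6R)-HNK and 2381 and 2219 for (2S,6S)-HNK. The (2S,6S)-HNK and E2+(2R,6R)-HNK libraries were the highest, and all treated libraries were above vehicle. Log2 fold changes were 0.50, 0.07, 0.39, 0.83, 0.36, 0.93 and 0.53, and -0.01, -0.37, -0.15, 0.26, -0.38, 0.28 and 0.19 after correction, which turned the direction under ketamine, (2R,6R)-HNK and E2+ketamine and left no call under E2. The rise under ketamine as counted lost its call without ketamine replicate 2 or without vehicle replicate 2, at log2 fold changes of 0.06 and 0.06 (Benjamini-Hochberg adjusted p by edgeR's quasi-likelihood test, 0.0945 and 0.100). SCD, the stearoyl-CoA desaturase, was also abundant. SCD was at 1419 and 1436 CPM in the vehicle libraries, 1546 and 1531 with E2, 1682 and 1694 with ketamine, 1445 and 1431 with (2R,6R)-HNK and 2022 and 2039 with (2S,6S)-HNK. With E2 added, it was at 1528 and 1519 CPM for ketamine, 2112 and 2116 for (2R,6R)-HNK and 2005 and 2019 for (2S,6S)-HNK. The (2S,6S)-HNK libraries and those of both HNKs with E2 were above all others, and the (2R,6R)-HNK libraries overlapped vehicle. Its log2 fold changes were 0.11, 0.24, 0.01, 0.51, 0.09, 0.57 and 0.50, and 0.23, 0.31, 0.17, 0.64, 0.32, 0.68 and 0.56 after correction. ACACA and ACLY, which supply malonyl-CoA and acetyl-CoA, fell most under E2+ketamine, by 0.78 and 0.29, and were -0.63 and -0.53 after correction. FADS1 and FADS2, the desaturases of polyunsaturated fatty acids, rose in all 7 comparisons by 0.18 to 0.33 and 0.07 to 0.67, and after correction lay between -0.02 and 0.13 and between -0.13 and 0.19. Exons of the pair overlap by 490 bp, so the assignment of reads there is uncertain.

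The 3 drugs were given at 1 dose and time, so they were compared directly, in 3 pairs without and 3 pairs with E2. The mirror-image metabolites differed in 25 of 35 members. With (2R,6R)-HNK relative to (2S,6S)-HNK, 5 members were higher (21% of all genes) and 20 lower (22.4%) (quasi-likelihood test in edgeR, Benjamini-Hochberg). Lower members spanned the whole pathway, from HMGCS1 to SC5D, with SREBF2, INSIG1, FASN and SCD, and the higher members were MVK, TM7SF2, SREBF1, ABCA1 and FADS2. This comparison had little relation to GC content (rho = 0.32 over members and 0.037 over all genes), and with the correction 24 of the 25 calls were kept with the same direction, for 6 higher (24.5%) and 20 lower (20.4%).

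The log2 difference of INSIG1 was -0.76 (95% interval -0.81 to -0.72), that of SC5D -0.65 (95% interval -0.76 to -0.54), that of HMGCS1 -0.55 (95% interval -0.62 to -0.49) and that of MSMO1 -0.55 (95% interval -0.61 to -0.49). After correction these were -0.75, -0.58, -0.51 and -0.56. Both libraries with (2R,6R)-HNK were below both libraries with (2S,6S)-HNK for each of these genes. For INSIG1 the adjusted p was 1.01e-30 (quasi-likelihood test in edgeR, Benjamini-Hochberg). In the fatty acid group, SCD differed by -0.50 (95% interval -0.53 to -0.46) and FASN by -0.45 (95% interval -0.49 to -0.40). Of the higher members, ABCA1 differed by 0.66 (95% interval 0.49 to 0.84), TM7SF2 by 0.48 (95% interval 0.38 to 0.58) and SREBF1 by 0.34 (95% interval 0.27 to 0.40). SREBF2 differed in the opposite direction from SREBF1, by -0.44 (95% interval -0.49 to -0.39). Members not called as different included ELOVL6, FADS1, LSS and ACAT2, with intervals of -0.20 to 0.36, -0.07 to 0.02, -0.01 to 0.10 and -0.10 to 0.01.

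Ketamine, the parent drug, also stood below (2S,6S)-HNK in most members. With ketamine relative to (2S,6S)-HNK, 2 members were higher (22% of all genes) and 24 lower (24.2%), and the 2 higher members were ABCA1 and FADS1. FASN differed by -0.76 (95% interval -0.81 to -0.71), MVD by -0.71 (95% interval -0.78 to -0.64) and INSIG1 by -0.61 (95% interval -0.66 to -0.57), while ABCA1 differed by 0.75 (95% interval 0.57 to 0.92). Both ketamine libraries were below both (2S,6S)-HNK libraries for FASN, MVD and INSIG1, and above them for ABCA1. All 26 calls were kept with the correction, which gave 4 higher (17.6%) and 27 lower (23.8%). Ketamine relative to (2R,6R)-HNK was less one-sided: 10 members were higher (22.8% of all genes) and 18 lower (22.6%), INSIG1 differed by 0.15 (95% interval 0.10 to 0.20) and ABCA1 by 0.08 (95% interval -0.08 to 0.24). These differences of members followed GC content (rho = -0.82), and 20 of the 28 calls were kept with the correction. The 4 tested members of the LXR group, ABCA1 among them, then lay between -0.28 and -0.01. No member of SREBP control, INSIG1 included, was then above 0.08. The comparisons with (2S,6S)-HNK share its 2 libraries.

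With E2 present, ketamine stood below both metabolites in INSIG1, HMGCS1, MSMO1, SC5D and SQLE. With E2+ketamine relative to E2+(2R,6R)-HNK, 9 members were higher (25.3% of all genes) and 22 lower (26.7%). INSIG1 differed by -1.18 (95% interval -1.23 to -1.13), HMGCS1 differed by -1.09 (95% interval -1.15 to -1.02), MSMO1 by -0.89 (95% interval -0.95 to -0.82) and SQLE by -0.73 (95% interval -0.79 to -0.67). SREBF1, PMVK and TM7SF2 were higher, by 0.60, 0.56 and 0.55. The 2 libraries of each condition did not overlap in any of these 7 genes. With the correction, 28 of 31 calls were kept with the same direction, for 9 higher (28.3%) and 22 lower (22.4%).

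With E2+ketamine relative to E2+(2S,6S)-HNK, 14 members were higher (31.7% of all genes) and 18 lower (35%), with differences of -1.53 for HMGCS1, -1.28 for INSIG1 and -1.21 for SC5D, which were -1.14, -1.04 and -0.74 after correction. Of the 32 calls, 22 were kept with the correction, 7 changed sign and 5 of these were called in the opposite direction. Between the mirror-image metabolites with E2, relative to E2+(2S,6S)-HNK, 19 members were higher (29.1% of all genes) and 12 lower (25%) in E2+(2R,6R)-HNK. The gap in INSIG1 seen without E2 was here -0.10 (95% interval -0.14 to -0.05), and 0.03 after correction. HMGCS1 differed by -0.44 (95% interval -0.50 to -0.38), and by -0.20 after correction. ABCA1, which was higher with (2R,6R)-HNK in the absence of E2, differed by -0.33 (95% interval -0.50 to -0.15), and by -0.26 after correction. With E2 the members' differences between the metabolites followed GC content (rho = 0.91, against 0.67 over all genes), and 15 of 31 calls were kept with the correction. Adjusting over all genes and the 6 pairs together left each of the 12 counts within 1.5 times its value here.

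**Figure D4:**
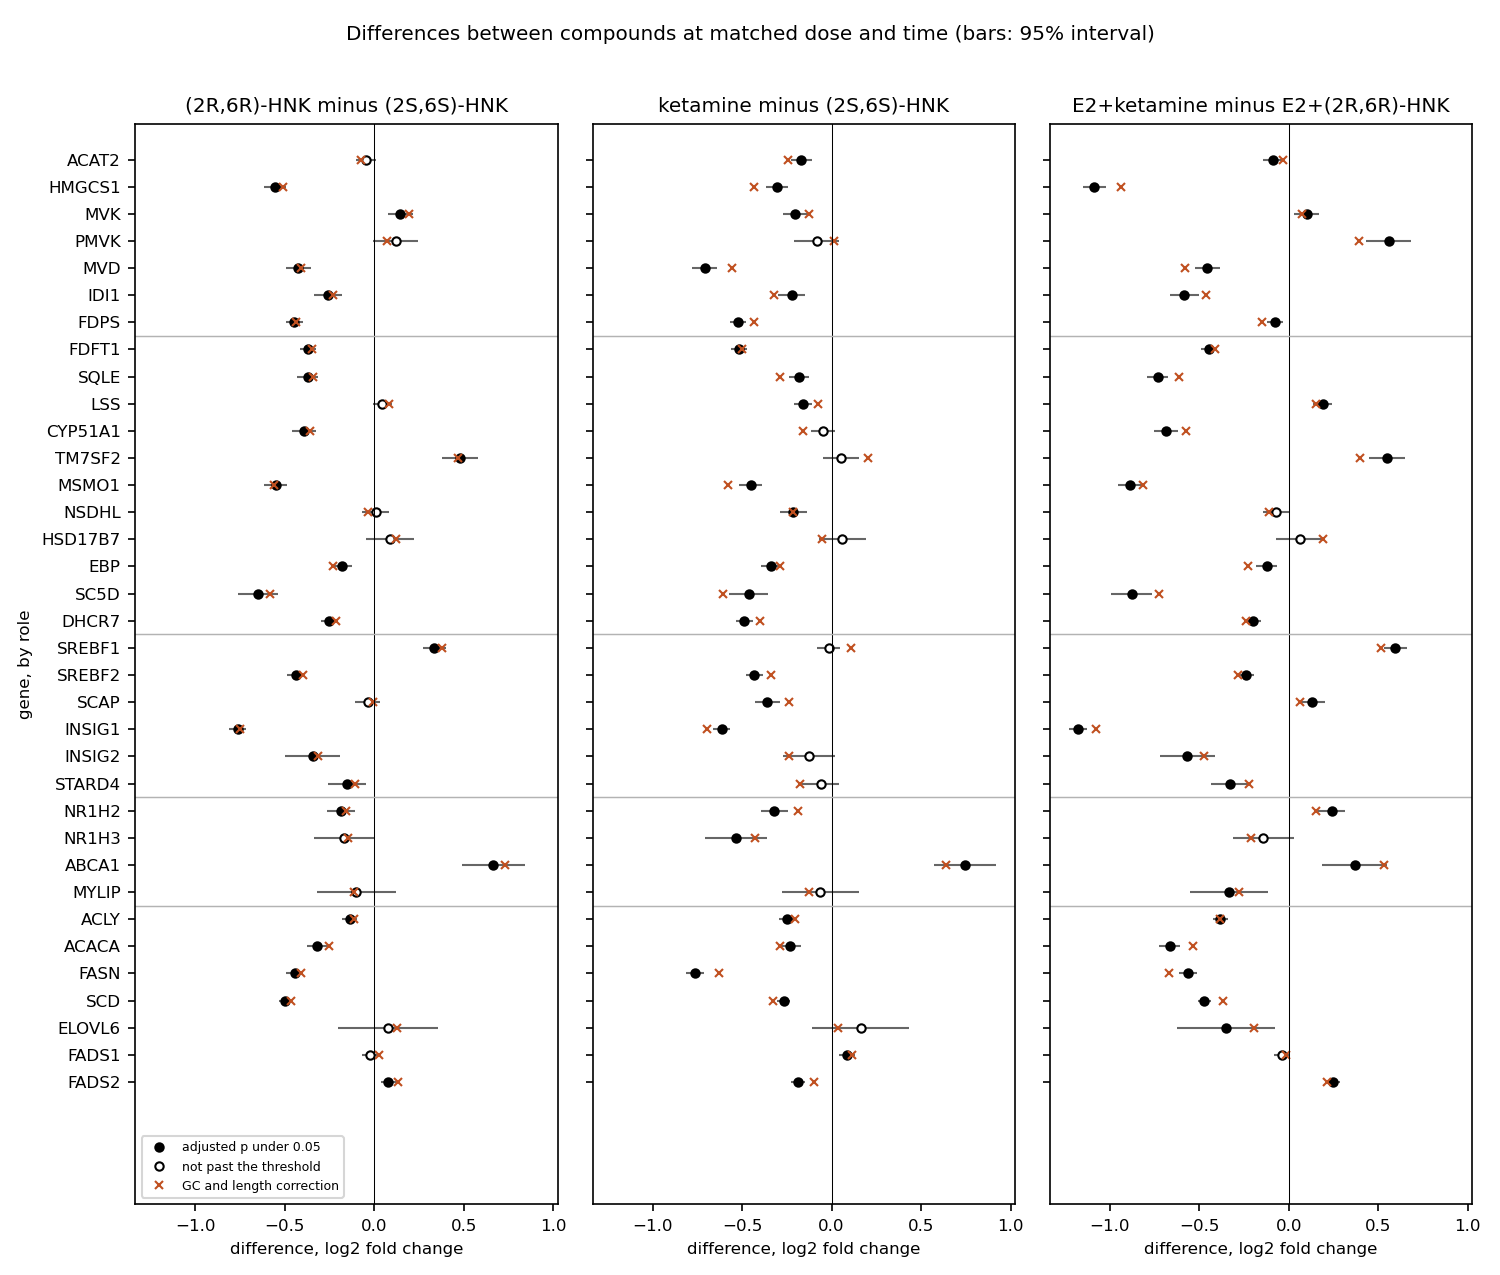
Points give the log2 difference of the 35 members (rows, by role) for (2R,6R)-HNK minus (2S,6S)-HNK, ketamine minus (2S,6S)-HNK and E2+ketamine minus E2+(2R,6R)-HNK, at matched dose and time, with bars for the 95% interval, open points for an adjusted p of 0.05 or more, and crosses for the value after GC and length correction. Most members lie left of 0 in these 3 panels, INSIG1 among the farthest, and ABCA1 lies right of 0 in each.

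Whether the effect of a drug differed with E2 was tested as an interaction: the change from E2 to E2 with the drug, minus the change from vehicle to the drug alone. For ketamine, 5 members had a higher effect with E2 (24.5% of all genes) and 13 a lower one (13.1%) (quasi-likelihood test in edgeR, Benjamini-Hochberg). INSIG1 was the member farthest from 0, at -0.80 (95% interval -0.87 to -0.73), and -0.85 after correction. Its rise of 0.35 with ketamine alone and of 0.28 with E2 alone stood beside -0.18 with both. The count of 5 was 3 without E2 replicate 2 or without vehicle replicate 2. After correction, 9 members were higher and 10 lower, against 3986 and 1904 of the 16004 genes.

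For (2R,6R)-HNK, 17 members had a higher effect with E2 (31.5% of all genes) and 11 a lower one (25.2%). SC5D lay highest at 1.28 (95% interval 1.13 to 1.44), followed by HMGCS1 at 1.12 (95% interval 1.03 to 1.20) and INSIG2 at 1.02 (95% interval 0.81 to 1.23), and TM7SF2 lay lowest at -1.08 (95% interval -1.23 to -0.94). As examples of direction, HMGCS1 was -0.81 relative to vehicle with (2R,6R)-HNK alone and -0.24 with E2 as well, and E2 alone gave -0.55. With E2 and (2R,6R)-HNK together, the corrected value of HMGCS1 was 0.24, so its direction turned. After correction these 4 interactions were 0.73, 0.66, 0.52 and -0.68, each still past the adjusted p of 0.05, and 21 of the 28 calls were kept with the same direction. INSIG1 had 0.53 (95% interval 0.46 to 0.59), and 0.28 after correction.

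For (2S,6S)-HNK, 13 members had a higher effect with E2 (32.9% of all genes) and 21 a lower one (32.2%). ELOVL6 was at 1.0 (95% interval 0.63 to 1.38) and HMGCS1 at 0.999 (95% interval 0.91 to 1.08), while TM7SF2 was at -0.98 (95% interval -1.13 to -0.83) and NR1H3 at -0.89 (95% interval -1.15 to -0.64). After correction these were 0.45, 0.35, -0.33 and -0.44. These members' interactions followed GC content (rho = -0.92 over members and -0.76 over all genes). After correction, 22 of the 34 calls were kept with the same direction and 5 were called in the other direction. INSIG1 was at -0.14 and at -0.50 after correction, beside 0.28 for E2, 0.96 for (2S,6S)-HNK and 1.10 for both relative to vehicle. The 3 interactions share the E2 and the vehicle libraries.

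**Figure D5:**
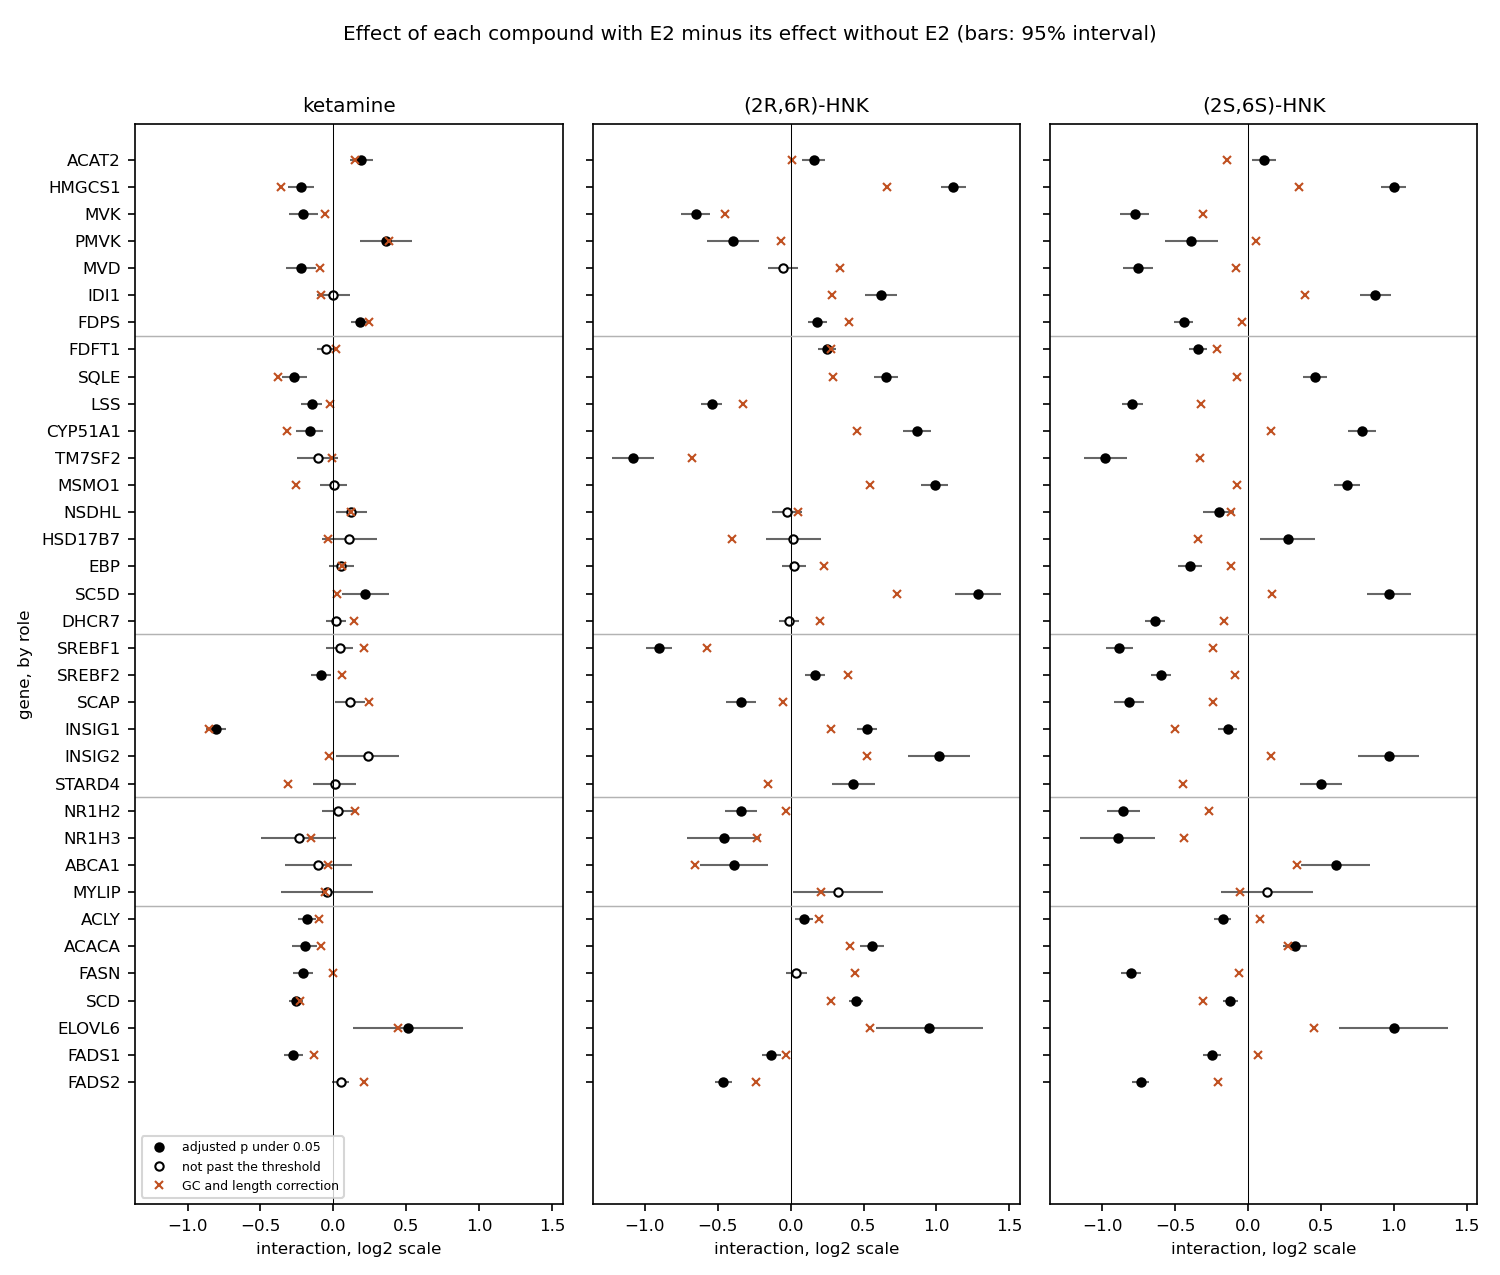
Points give, for each of the 35 members (rows, by role), the log2 effect of a compound with E2 minus its effect without E2, with bars for the 95% interval, open points for an adjusted p of 0.05 or more, and crosses for the value after GC and length correction. For ketamine INSIG1 lies farthest from 0, at -0.80, and for both metabolites SC5D and HMGCS1 lie to the right and TM7SF2 to the left.

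A list of 62 further genes of lipid pathways, such as acyl-CoA synthetases, SREBP proteases and fatty acid elongases, was compared with vehicle, and 59 of them were tested. Single genes are named below for being the highest or lowest of the list among those at 5 CPM or more. Of the 59, 21 rose and 26 fell under E2, 24 rose and 21 fell under ketamine, 25 rose and 24 fell under (2R,6R)-HNK, 24 rose and 22 fell under (2S,6S)-HNK, 25 rose and 27 fell under E2+ketamine, 25 rose and 22 fell under E2+(2R,6R)-HNK and 17 rose and 21 fell under E2+(2S,6S)-HNK. These counts stand against the shares of all genes given above for each exposure. After correction the numbers that rose were 14, 16, 17, 25, 24, 23 and 18 and those that fell 15, 21, 19, 16, 19, 17 and 17, in the same order. ACSS2, which makes acetyl-CoA from acetate, rose most under (2S,6S)-HNK and under E2 with (2R,6R)-HNK or (2S,6S)-HNK, by 1.45, 1.58 and 1.20, and by 1.27, 1.37 and 1.11 after correction. These are the 3 exposures in which INSIG1 was at 495 to 555 CPM. MBTPS2, the membrane protease that releases SREBPs, was the lowest of the list under E2, ketamine, (2R,6R)-HNK, E2+ketamine and E2+(2R,6R)-HNK, falling by 0.79 to 1.19 as counted, and its values after correction were -0.63 to -0.30. SOAT1, which esterifies cholesterol for storage, was the lowest under (2S,6S)-HNK and E2+(2S,6S)-HNK, at -1.07 and -0.81, and at -0.59 and -0.55 after correction.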

How the data were processed

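RNA was measured by paired-end sequencing in HMC3 cells under 8 conditions with 2 libraries each, 16 in total. The authors amplified cDNA with the Ovation system and deposited raw read counts per gene, not normalized. The submitters' processing notes name TopHat2 2.0.14, Bowtie2 2.2.6 and featureCounts 1.4.6 on hg19, and the study counted uniquely mapped, concordant pairs against UCSC gene models. Reads shared between overlapping genes, or with near-identical copies, can thus be missing or misassigned. Beyond the overlaps given above, exons of NR1H3, STARD4, CYP51A1 and TM7SF2 overlap those of another counted gene by 189, 124, 108 and 18 bp. Use of strand is not given in the sources used here.

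From the deposited counts, genes passing filterByExpr were scaled by TMM and fitted with edgeR 4.0.16 (R 4.3.3) as 8 group means over all 16 libraries, leaving 8 residual degrees of freedom, and tested by the quasi-likelihood test with Benjamini-Hochberg adjustment per comparison. There were 7 comparisons with vehicle, 6 compound pairs and 3 interactions. A gene was called at an adjusted p below 0.05. CPM and log2 fold changes come from this fit, and intervals are 95%. The correction regressed each library's log2 CPM, less the gene mean, by loess on the GC content of exons, and next on the log2 of their length (span 0.5), from GENCODE models on GRCh37, which matched 95.99% of the genes tested. The fit without the correction was tested on simulated counts for (2S,6S)-HNK against vehicle, and the correction was not tested in this way. Library totals were 55300614 to 81646165 counts, and the 2 libraries of every condition differed by more than sampling noise.

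The alternatives were DESeq2 1.42.0, its size factors, upper-quartile scaling, other low-count filters, the compared groups alone, a replicate block, the correction, and leaving out each library. Members and lists were chosen with earlier results of these data known. Every member may be named, with values in each library for those meeting the study's criteria against vehicle at least once and for SREBF1, SREBF2, INSIG1, SQLE, HMGCS1, FASN, SCD and ABCA1. Of the further lipid genes, the highest and lowest called per comparison could be named if at 5 CPM or more on average and with both libraries on the same side of vehicle.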

Additional observations from a re-analysis of the deposited data

Results flagged for a closer look

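For 5 members, the effect of a metabolite differed with E2 by at least 1 on the log2 scale (edgeR quasi-likelihood test of the interaction with Benjamini-Hochberg adjustment over all genes tested). This was so for 4 members with (2R,6R)-HNK, where 909 of 16004 genes tested passed, and for 1 member with (2S,6S)-HNK, where 1714 passed. With (2R,6R)-HNK, the interaction of SC5D was 1.28 (adjusted p = 1.15e-19), with log2 fold changes against vehicle of -0.83 for the metabolite, -0.69 for E2 and -0.24 for both. That of HMGCS1 was 1.12 (adjusted p = 3.41e-27), with -0.81, -0.55 and -0.24 in the same order. That of INSIG2 was 1.02 (adjusted p = 7.61e-12), with -0.61, -0.74 and -0.33. That of TM7SF2, the one member here with GC-rich exons, was -1.08 (adjusted p = 2.20e-18), with 0.83, 0.68 and 0.43. With (2S,6S)-HNK, the interaction of ELOVL6 was 1.0 (adjusted p = 5.38e-06), with -1.05, -0.78 and -0.83. After GC and length correction the interactions were 0.73, 0.66, 0.52, -0.68 and 0.45, and the call of ELOVL6 was then at an adjusted p of 0.0425 by the same test. For E2 with (2R,6R)-HNK against vehicle, the corrected values of SC5D, HMGCS1 and INSIG2 were 0.40, 0.24 and 0.31, so their direction turned. ELOVL6 was called lower against vehicle in all 7 comparisons after correction. The part of base composition in these interactions was not tested beyond this correction.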

How the results depend on the processing

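The GC and length correction moved the results most, and it changed the sign of 5 to 16 called members in each comparison with vehicle. Among the 11 members followed under every setting, with or without the replicate block, the log2 fold change against vehicle took the other sign for HMGCS1 under (2S,6S)-HNK (0.209, 0.208 with the block) and E2+(2R,6R)-HNK (0.240), SC5D under (2S,6S)-HNK (0.401) and E2+(2R,6R)-HNK (0.399), INSIG1 under E2+ketamine (0.181), SREBF1 under ketamine (-0.134), (2S,6S)-HNK (-0.240) and E2+(2R,6R)-HNK (-0.286), and SREBF2 under (2R,6R)-HNK (-0.0480, -0.0479 with the block). The same held for SQLE under E2 (0.159), ketamine (0.0987) and (2R,6R)-HNK (0.0436, 0.0437 with the block), and FASN under E2 (-0.00503, -0.00495 with the block), ketamine (-0.374), (2R,6R)-HNK (-0.151) and E2+ketamine (-0.384). The cause was not tested.

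Of the counts of members called, the correction gave 8 higher for ketamine against vehicle (18 without it) and 10 lower for E2+(2S,6S)-HNK (6). Over the 16004 genes tested, these counts were 2826 (4291 without it) and 5434 (5708). For the pairs, it gave 6 higher for ketamine against (2R,6R)-HNK (10), 4 higher for ketamine against (2S,6S)-HNK (2) and 5 lower for E2+(2R,6R)-HNK against E2+(2S,6S)-HNK (12). Over all genes tested, these were 2366 (3652), 2821 (3513) and 1996 (3995). For the interactions the correction gave 9 higher for ketamine (5), 7 lower for (2R,6R)-HNK (11) and 8 higher for (2S,6S)-HNK (13). Over all genes tested, these were 3986 (3915), 3507 (4027) and 3185 (5259). The counts of members were equal with the correction and the replicate block together. The members' median against vehicle with the correction became 0.188 under E2+(2S,6S)-HNK, 0.0406 under E2 (0.0402 with the block), 0.0406 under (2R,6R)-HNK (0.0407 with it), 0.0152 under E2+ketamine and -0.0570 under ketamine.

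Upper-quartile scaling gave 2 lower for E2+(2S,6S)-HNK and 3 higher for the interaction of ketamine. It moved the median of all genes by up to 0.105 (E2+(2S,6S)-HNK against vehicle), and that of the members to 0.242 in the same comparison. The members' median became 0.352 under E2+(2R,6R)-HNK, 0.317 under (2S,6S)-HNK, 0.274 under (2R,6R)-HNK, 0.173 under E2, 0.156 under E2+ketamine and 0.154 under ketamine. DESeq2 and its size factors gave 0.146 for E2+ketamine, and the compared groups alone 0.210 for E2+(2S,6S)-HNK. Leaving out single libraries gave 3 to 6 higher members for the interaction of ketamine and a median of 0.0580 to 0.132 for ketamine, the latter without ketamine replicate 1.

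Over all genes tested, same-numbered libraries did not deviate together (correlations of -0.0258 to 0.0451). This cannot decide whether same-numbered libraries were prepared together, which the labels do not state. The replicate block left all 32 counts of members called within 1.5 times. Among the 11 members followed, upper-quartile scaling ended the call of SC5D under (2S,6S)-HNK (-0.109) and gave calls to SC5D under E2+(2S,6S)-HNK (0.202), SQLE under (2S,6S)-HNK (0.0856) and SCD under (2R,6R)-HNK (0.0883). SCD also gained its call with DESeq2 (0.0492) and its size factors (0.0491), and SC5D its call with the compared groups alone (0.169). With the correction, SREBF2 lost its calls under E2 (0.0158) and ketamine (0.00856), and SC5D and SREBF1 under E2+(2S,6S)-HNK, SQLE under (2S,6S)-HNK and SCD under (2R,6R)-HNK gained calls. Without E2+(2R,6R)-HNK replicate 1 the rise of SQLE there, 0.0713, lost its call, and without E2+(2S,6S)-HNK replicate 1 SREBF1 gained one at -0.0951. ABCG1, at 0 to 6 counts per library, did not pass the low-count filter and was not tested. The members with the fewest counts among those tested, ELOVL6 and MYLIP, had wider errors than abundant members such as SCD.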
